A study of Mus musculus with 6 samples.

Results

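The transcription factor p53, its inhibitors and the genes it is known to activate were read in the mouse cell line GC1-Spg, an established line of spermatogonial origin. A list of 32 genes was taken, and every probe set whose symbol in the probe table was one of them, and only one, was used. Of the 32 genes, 29 had 61 such probe sets, among 18193 genes named in this way on the array. No probe set was paired with Trp53, the gene of p53 itself, or with Bax and Gdf15, so these 3 are not analysed here. After a filter on low values, 27 genes with 55 probe sets were tested, and Eda2r and Tnfrsf10b lay below it.

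The control cells received a scrambled siRNA at 100 nM. The others received, at the same dose, an siRNA that targets mrhl, a nuclear noncoding RNA of the mouse, and RNA was taken 44 h after transfection. Each group held 3 replicates that the titles call biological, and each replicate had its own 1-colour Affymetrix array. All 6 cultures were transfected, and no untransfected cells enter the comparison. GC1-Spg was immortalized with the large T antigen of a simian virus, a protein that binds p53, so both groups carry a p53 pathway that may differ from that of a normal spermatogonium. Both groups are cultures of the same line. The probe table named no probe set for mrhl, so its silencing could not be checked on these arrays.

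p53 is kept at a low level in unstressed cells by Mdm2, a ubiquitin ligase that marks it for degradation, and by the related protein Mdm4, which masks its activation domain. DNA damage and other stresses release it. It then binds DNA at response elements built of repeated decamers and raises transcription of genes for cell cycle arrest, apoptosis, DNA repair and metabolic control, and of Mdm2, which closes a feedback loop. In the testis p53 is known for its part in the removal of damaged germ cells. p53 is controlled largely as a protein, and its output is commonly read through transcript levels of target genes. Whether these transcripts read it in GC1-Spg, which carries the large T antigen, was not tested.

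The sequences below show the p53 decamer, the unit of the response elements, in the promoters of those measured members where it was found. The decamer was searched as 3 purines, a C, 2 bases that are A or T, a G and 3 pyrimidines, a pattern that reads the same on both strands, in windows of 250 bases before to 50 bases after each RefSeq start (GRCm38.p6). Of the 29 genes measured, 20 had a window in the promoter table, and 8 of the 20 (40%) held at least 1 exact decamer, against 9.55% of all 27025 genes with a window. Of the 32 listed genes, 23 had windows, 32 windows in all, and 11 of these windows (34.4%) held it, against 8.36% of 32851. Windows of the same gene can overlap, and the match of Aen was counted in more than 1 window. Adjoining decamers were searched with at most 1 mismatch in 20 bases, and none at the fixed C and G of each decamer. They were found before Cdkn1a and Ccng1 and in 0.067% of all windows. A match describes letters and does not show binding, and a window without one says nothing of elements further away.

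For Cdkn1a, the 250 bases before a RefSeq start (chr17:29090729-29090978, plus strand) are printed whole because they hold 2 exact decamers, in capitals. The second of them begins at position -51 from the start and is followed directly by a decamer with 1 mismatch.
Cdkn1a: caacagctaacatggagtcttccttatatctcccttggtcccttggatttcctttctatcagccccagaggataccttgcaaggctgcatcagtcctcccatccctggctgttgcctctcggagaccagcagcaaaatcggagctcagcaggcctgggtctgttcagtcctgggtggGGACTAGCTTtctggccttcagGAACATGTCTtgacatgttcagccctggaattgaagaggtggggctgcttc

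Other measured members with a match are shown by 30 bases, so that the decamers can be compared, with the match in capitals. For Ccng1 (chr11:40755457-40755486, minus strand) the capitals cover adjoining decamers with 1 mismatch. The other lines each mark 1 exact decamer: Mdm2 (chr10:117710925-117710954, minus strand), Gadd45a (chr6:67037428-67037457, minus strand), Sesn1 (chr10:41887256-41887285, plus strand), Polk (chr13:96519399-96519428, minus strand), Ei24 (chr9:36797325-36797354, minus strand) and Aen (chr7:78895927-78895956, plus strand).
Ccng1: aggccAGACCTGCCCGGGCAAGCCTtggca
Mdm2: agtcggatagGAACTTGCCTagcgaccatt
Gadd45a: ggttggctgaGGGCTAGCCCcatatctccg
Sesn1: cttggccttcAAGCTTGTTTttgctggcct
Polk: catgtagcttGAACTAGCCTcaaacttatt
Ei24: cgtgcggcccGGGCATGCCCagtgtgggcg
Aen: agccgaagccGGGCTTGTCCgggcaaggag

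The deposited values were log2 expression values with 1 value per probe set and array, and all changes below are differences on that scale, mrhl siRNA minus scrambled siRNA. Array medians ran from 5.19 to 5.30. Over all 33778 probe sets tested, 0 had an adjusted p under 0.05 (limma, Benjamini-Hochberg over all of them, 0%), and 1163 had an unadjusted p under 0.05. The replicate numbers were read as pairs, and with them as a block the counts were 0 and 3411 (limma). The number of arrays limits the precision, and the median standard error was 0.189 over the 27 genes.

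The comparison asks whether silencing of mrhl goes with other levels of p53 target transcripts, and no member passed the test. The brightest tested probe set, by its mean over the 6 arrays, stands for each gene. Of 27 genes, 19 had lower and 8 higher mean levels after mrhl siRNA, or 70.4% lower, where 57.9% of all 14885 genes tested were lower and 42.1% higher. The log2 fold changes ran from -0.40 for Gadd45a, a growth arrest gene, to 0.47 for Fbxo32, which encodes an F-box protein of a ubiquitin ligase. Genes of DNA repair and nucleotide supply were all on the lower side, and those of apoptosis lay on both sides. Adjusted p ran from 0.965 to 0.999 over the 27 genes (limma).

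The median log2 fold change was -0.09 over the 27 genes and -0.04 over all genes tested. Over the 27 genes it was -0.15 without scrambled siRNA replicate 2 and -0.19 without mrhl siRNA replicate 3, where all genes had -0.0471 and -0.0521. For the 27 genes it was -0.03 without scrambled siRNA replicate 3 and -0.04 without mrhl siRNA replicate 2, where all genes had -0.0352 and -0.0176. At an unadjusted p under 0.05, 0 of 27 genes passed in limma, where 2.84% of all genes did. With the replicate block 4 of 27 did, or 14.8%, where 9.03% of all genes did, and their adjusted p was 0.487 to 0.492 (limma). These 4 were Gadd45a, Polk, Rrm2b and Xpc, all lower. The groups did not overlap in 1 gene, Fbxo32, or 3.70% of the 27, against 8.44% of all genes, 2.3% higher and 6.13% lower. Without mrhl siRNA replicate 3 the groups did not overlap in 10 of 27 genes, or 37.0%, against 28.1% of all genes, and fewer arrays overlap less by construction. In all 3 pairs of equal replicate number 14 genes were lower, or 51.9%, against 26.1% of all genes, and 2 were higher, or 7.41%, against 14.5%.

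**Figure D1:**
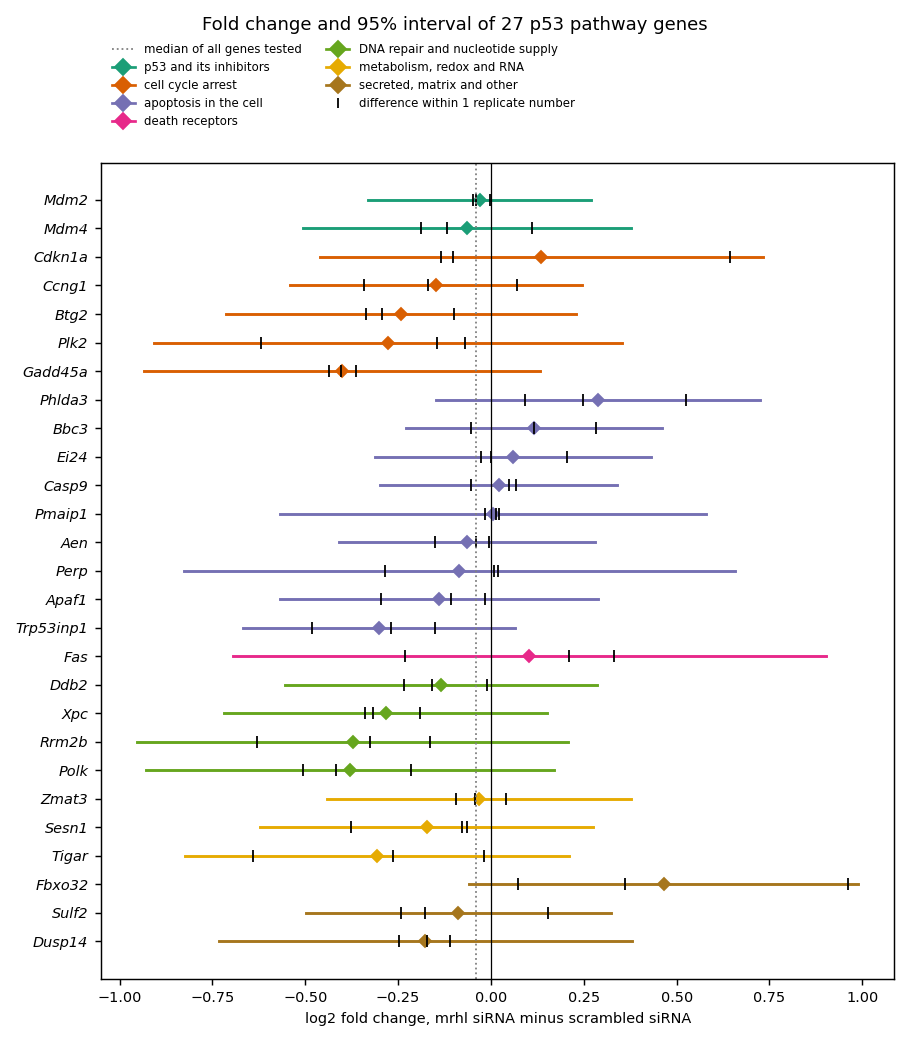
Log2 fold change, mrhl siRNA minus scrambled siRNA, of the 27 tested genes by role (diamonds), with the 95% interval of the limma fit (lines) and the difference within each of 3 replicate numbers (ticks). The fit is the one without the replicate block. Every interval drawn includes 0, and the values run from -0.40 for Gadd45a to 0.47 for Fbxo32. With the block, not drawn, the intervals of Gadd45a, Polk, Rrm2b and Xpc lay below 0.

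All 27 intervals lay between -0.95 and 0.99, so none of them reached a 2-fold difference in either direction. The genes are described by their values, in the order of their roles, and no direction is called for any of them.

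Both inhibitors of p53 were near the control level. Mdm2 stood at 9.55, 9.51 and 9.58 in the 3 control arrays and at 9.55, 9.47 and 9.53 after mrhl siRNA. It had the smallest standard error of the 27 genes, and the arrays differed little, with -0.03 (SE 0.128, 95% interval -0.33 to 0.27) as the log2 fold change. Its other tested probe set had -0.07 (SE 0.153). Mdm4 stood at 8.27, 8.03 and 8.56 and then at 8.08, 8.14 and 8.44, so the groups overlapped, with a log2 fold change of -0.07 (SE 0.189). Another, dimmer probe set of Mdm4 stood at 5.77, 5.94 and 6.15 in the controls and at 5.38, 5.27 and 5.70 after mrhl siRNA, with means of 5.95 ± 0.19 and 5.45 ± 0.22 (SD, n = 3). The groups did not overlap, and the difference was -0.50 (SE 0.178); this probe set was singled out after its values were seen. Without the replicate block it was the only one of the 55 probe sets with an unadjusted p under 0.05, against 1163 of all 33778 (limma). Its adjusted p in that fit was 0.965 (limma). With the block 8 of the 55 had an unadjusted p under 0.05, against 3411 of all 33778 (limma). The block interval of this Mdm4 probe set was -0.80 to -0.20, and its adjusted p was 0.487 (limma). The third tested probe set of Mdm4 had -0.05 (SE 0.192).

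Among the genes of cell cycle arrest, 4 of 5 were on the lower side and 0 passed. Cdkn1a, which encodes the cyclin-dependent kinase inhibitor p21 and is the most used readout of p53, stood at 9.96, 9.44 and 10.40 in the controls and at 9.85, 10.09 and 10.26 after mrhl siRNA. The control array of number 2 was the low one, and the groups overlapped. This gave a log2 fold change of 0.14 (SE 0.255) and an interval of -0.46 to 0.73, and without scrambled siRNA replicate 2 it was -0.11. Its other probe set had -0.07 (SE 0.490), with a spread between replicate numbers of 1.54.

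Gadd45a, whose product acts in growth arrest and DNA repair, stood at 9.003, 8.91 and 9.50 in the controls and at 8.57, 8.54 and 9.10 after mrhl siRNA. Both arrays of number 3 were high, so the groups overlapped, yet the differences within the 3 numbers were -0.43, -0.36 and -0.40. This 1.32-fold difference, -0.40 on the log2 scale, had an SE of 0.228, an interval of -0.93 to 0.13 and an adjusted p of 0.965 (limma). With the replicate block the interval was -0.67 to -0.13, and the adjusted p was 0.487 (limma). Gadd45a had a single probe set, and its log2 fold change was -0.22 without scrambled siRNA replicate 3 and -0.58 without mrhl siRNA replicate 3.

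Ccng1, the gene of cyclin G1 and a target that feeds back on Mdm2, stood at 10.21, 10.02 and 9.84 in the controls and at 10.04, 9.68 and 9.91 after mrhl siRNA. Its log2 fold change was -0.15 (SE 0.168), while its other probe sets had 0.11 (SE 0.159) and 0.01 (SE 0.158). The antiproliferative gene Btg2 had -0.24 (SE 0.202) and was lower in all 3 pairs, and its other probe set had -0.27 (SE 0.166). Plk2, which encodes a polo-like kinase, had -0.28 (SE 0.270) with differences of -0.07, -0.62 and -0.14.

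The 9 tested apoptosis genes were 5 higher and 4 lower, with a median log2 fold change of 0.0063. Bbc3, the gene of the BH3-only protein Puma, stood at 6.02, 6.00 and 6.27 in the controls and at 6.30, 6.11 and 6.22 after mrhl siRNA, a log2 fold change of 0.11 (SE 0.147). Pmaip1, which encodes the BH3-only protein Noxa, stood at 8.88, 9.16 and 9.57 and then at 8.90, 9.15 and 9.59. Its differences within replicate numbers were 0.02, -0.015 and 0.013, while the numbers themselves spanned 0.69. The log2 fold change of Pmaip1 was 0.0063 with an SE of 0.245 that holds this spread between numbers, and of 0.105 with the replicate block.

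Trp53inp1, a stress gene whose product promotes p53-dependent death, stood at 8.77, 8.67 and 8.47 in the controls and at 8.50, 8.19 and 8.32 after mrhl siRNA. Only the lowest control and the highest mrhl siRNA array overlapped, and all 3 pairs were lower. The difference was -0.30 (SE 0.157) with an interval of -0.67 to 0.07, and the dimmer probe set had -0.03 (SE 0.218). Phlda3, whose product restrains Akt, stood at 10.17, 9.60 and 9.75 and then at 10.26, 10.12 and 9.997, higher in all 3 pairs, with a log2 fold change of 0.29 (SE 0.186, 95% interval -0.15 to 0.72), and 0.17 without scrambled siRNA replicate 2.

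Of the apoptosome genes, the scaffold Apaf1 had -0.14 (SE 0.183), and its dimmer probe set had 0.02 (SE 0.207). The initiator caspase Casp9 had 0.02 (SE 0.137), and its other probe sets had 0.26 (SE 0.175) and 0.11 (SE 0.159). The nuclease gene Aen had -0.07 (SE 0.147) and the membrane protein gene Ei24 had 0.06 (SE 0.159). Perp, a membrane protein gene, had -0.09 (SE 0.317), and its replicate numbers spanned 0.93. Of the 3 death receptor genes only Fas was bright enough to be tested. Fas is given in full after its values were seen. It stood at 9.66, 9.09 and 8.67 in the controls and at 9.87, 8.85 and 8.998 after mrhl siRNA, a log2 fold change of 0.10 (SE 0.341), and both arrays of number 1 were the high ones.

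The other death receptor genes lay under the level of 3.62 below which probe sets were left out. Eda2r, the receptor of ectodysplasin A2, stood at 3.03, 2.03 and 2.52 in the controls and at 3.69, 3.98 and 3.14 after mrhl siRNA. The groups did not overlap, but whether the signal was above background was not tested. Eda2r was singled out after its values were seen. Tnfrsf10b, the TRAIL receptor, had 2 probe sets with group means between 2.72 and 3.60.

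All 4 genes of DNA repair and nucleotide supply were lower after mrhl siRNA, with a median log2 fold change of -0.33, and 0 passed. The median was -0.20 without scrambled siRNA replicate 3 and -0.21 without mrhl siRNA replicate 2. Of their 9 tested probe sets, 8 were lower. Polk, which encodes a translesion DNA polymerase, stood at 7.28, 7.35 and 7.75 in the controls and at 6.87, 6.85 and 7.54 after mrhl siRNA. All 3 pairs were lower, and the mrhl siRNA array of number 3 lay among the controls. The log2 fold change of Polk was -0.38 (SE 0.235, 95% interval -0.93 to 0.17), and its other probe set gave -0.39 (SE 0.170).

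Rrm2b, the p53-inducible small subunit of ribonucleotide reductase, is given in full after its values were seen. It stood at 7.70, 8.22 and 8.45 and then at 7.54, 7.60 and 8.13, lower in all 3 pairs, with a log2 fold change of -0.37 (SE 0.248). Its next brightest probe set had -0.42 (SE 0.193), and the pair of dim ones had -0.07 (SE 0.720) and 0.19 (SE 0.589). Xpc, which recognizes lesions in nucleotide excision repair, stood at 6.38, 6.21 and 6.58 and then at 6.06, 5.87 and 6.39. Its log2 fold change was -0.28 (SE 0.186), and all 3 pairs were lower.

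Ddb2, which also recognizes lesions for excision repair, had -0.13 (SE 0.179) and, without scrambled siRNA replicate 3, 0.0072. Without that array Polk had -0.24, Rrm2b -0.21 and Xpc -0.19, each smaller in size. Under every other alternative run all 4 repair genes kept negative values. With the replicate block the intervals were -0.68 to -0.08 for Polk, -0.72 to -0.03 for Rrm2b and -0.56 to -0.0056 for Xpc. That of Ddb2 was -0.42 to 0.15. The adjusted p with the block was 0.487 for Polk and Rrm2b, 0.492 for Xpc and 0.656 for Ddb2 (limma).

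The genes of metabolism, redox control and RNA were also lower, 3 of 3, with 0 past the test, and 2 of 3 without scrambled siRNA replicate 1 or 3 or mrhl siRNA replicate 2, where Zmat3 turned higher. Tigar, whose product lowers glycolytic flux, had -0.31 (SE 0.221) with differences of -0.02, -0.64 and -0.26 within the numbers. Its other probe sets agreed in size, with -0.33 (SE 0.188) and -0.33 (SE 0.150), and in the last of these the groups did not overlap. Sesn1, a sestrin that restrains growth signalling, had -0.17 (SE 0.191), and -0.0067 without scrambled siRNA replicate 1, while its 3 other probe sets ran from -0.18 to -0.02. Zmat3, an RNA-binding zinc finger protein gene, had -0.03 (SE 0.175).

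Fbxo32 was the one gene whose groups did not overlap. It stood at 5.67, 5.98 and 5.79 in the controls and at 6.03, 6.06 and 6.75 after mrhl siRNA. The mrhl siRNA array of number 3 was far above the others of its group. This 1.38-fold difference, 0.47 on the log2 scale (SE 0.224), had an interval of -0.06 to 0.99, and it was 0.23 on the log2 scale without that array. The dimmer probe sets of Fbxo32 had 0.02 (SE 0.326) and -0.01 (SE 0.175). The phosphatase gene Dusp14 had -0.18 (SE 0.237) and was lower in all 3 pairs. The extracellular sulfatase gene Sulf2 had -0.09 (SE 0.175) and, in its other bright probe sets, 0.27 (SE 0.265) and -0.10 (SE 0.174). The mean over its probe sets was 0.03.

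**Figure D2:**
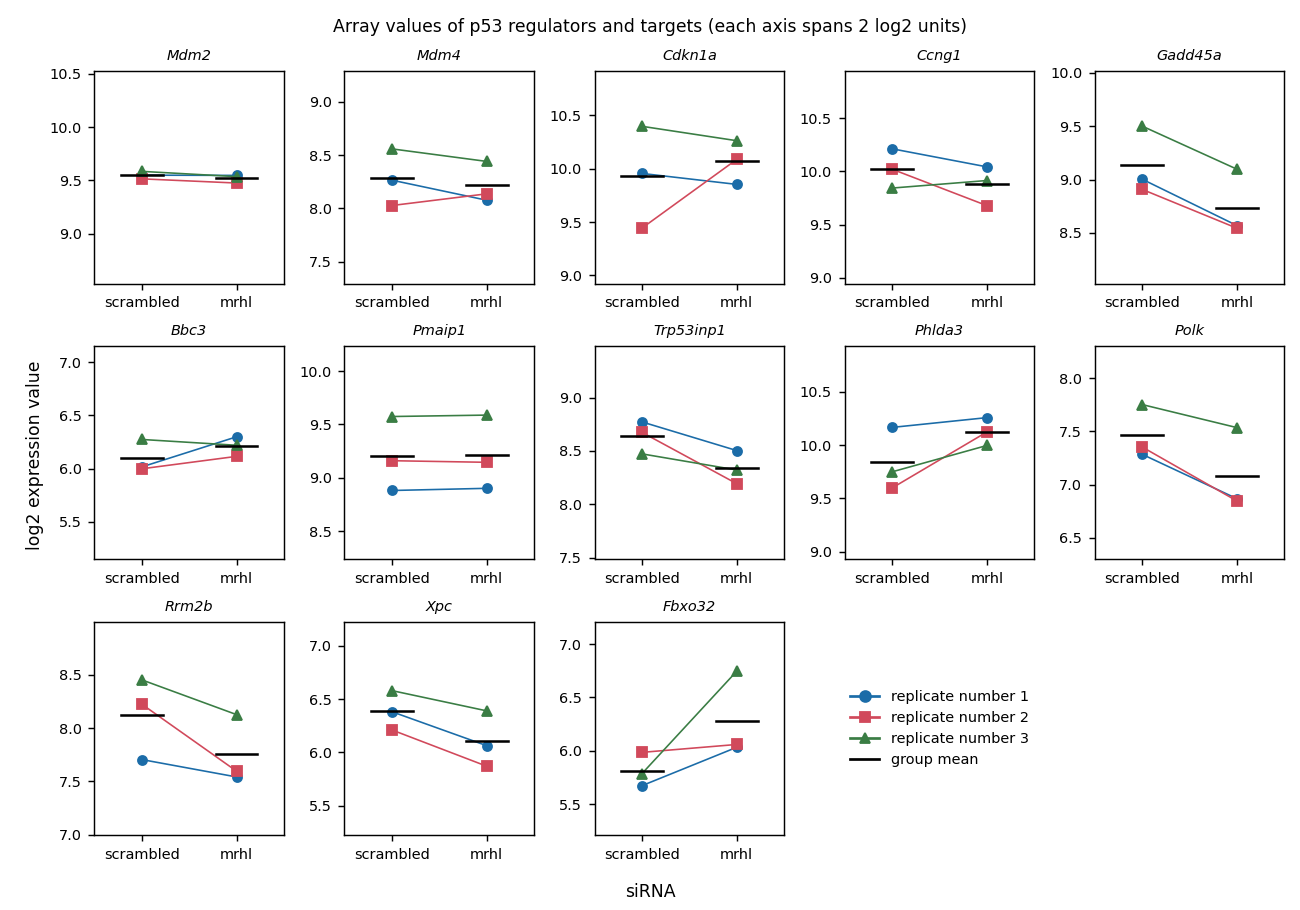
Log2 expression value of each array for 13 genes, with scrambled and mrhl siRNA arrays of the same replicate number joined by a line and group means as black bars; each axis spans 2 log2 units. Gadd45a, Polk, Rrm2b, Xpc and Trp53inp1 slope down in all 3 numbers, Phlda3 and Fbxo32 slope up, and Mdm2 is flat.

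For most members the replicate numbers lay further apart than the siRNA groups, as they did for most genes tested. The spread of the numbers is the highest minus the lowest of 3 means of 2 arrays each. The fold change compares 2 means of 3 arrays each, so the spread tends to be the larger by construction. The spread between the means of the 3 numbers exceeded the size of the log2 fold change in 25 of 27 genes, or 92.6%, against 83.8% of all genes tested. Its median was 0.42 over the 27 genes and 0.34 over all genes, where the median sizes of the log2 fold change were 0.14 for both. Number 3 was the highest in 19 genes, or 70.4%, against 39.6% of all genes, and number 1 in 8, or 29.6%, against 36.7%. Number 2 was the highest in 0, against 23.7%.

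The genes did not share a single pattern across the numbers. Perp stood at 7.84 in number 1, 8.48 in number 2 and 8.76 in number 3, and Plk2 at 9.71, 9.95 and 10.43. Fas ran the other way, at 9.77, 8.97 and 8.83, and Ccng1 was likewise highest in number 1. Whether the numbers differ in time, passage or handling is not given in the sources used here, and their part in the results was not tested beyond the replicate block.

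**Figure D3:**
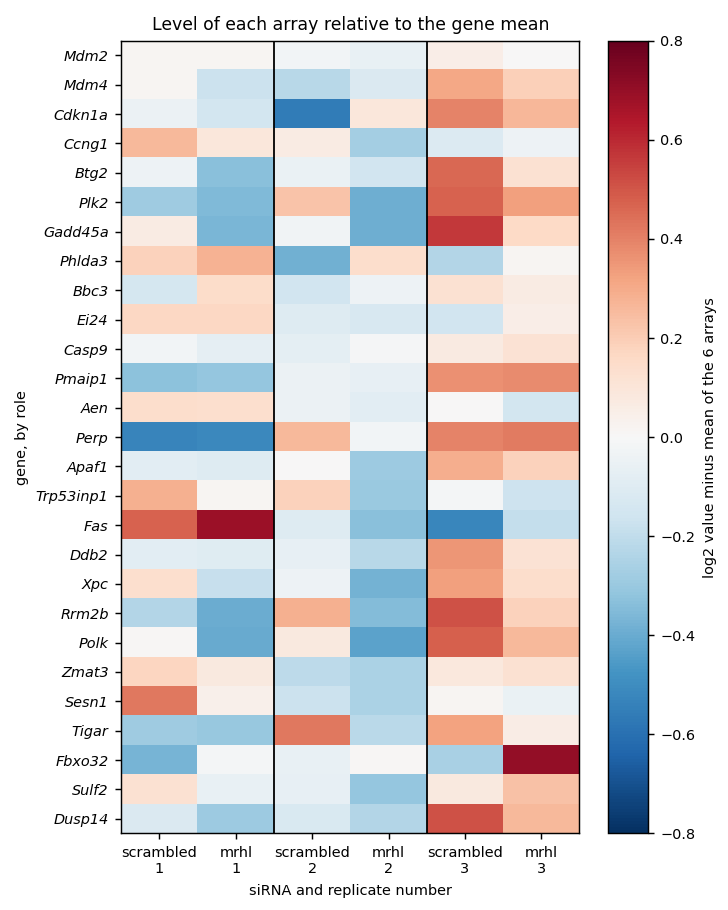
Log2 value of each array minus the mean of the 6 arrays, for the 27 genes in the order of roles (rows) and the arrays by replicate number (columns); red is above and blue below the mean. Red in number 3 covers Cdkn1a, Gadd45a, Pmaip1, Perp, Polk and others, 19 of the 27 genes being highest there, while Fas is red in number 1.

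The probe sets of a gene were compared where several were tested, in 16 genes. Of the 28 probe sets beside the brightest, 20 had the sign of the brightest and 8 had the opposite sign. Those of Polk, Tigar, Btg2 and Ddb2 differed from the brightest by at most 0.023. The gap was 0.56 for a dim probe set of Rrm2b, 0.48 for one of Fbxo32 and 0.44 for the one of Mdm4 described above. Which transcripts these probe sets read is not given in the sources used here.

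**Figure D4:**
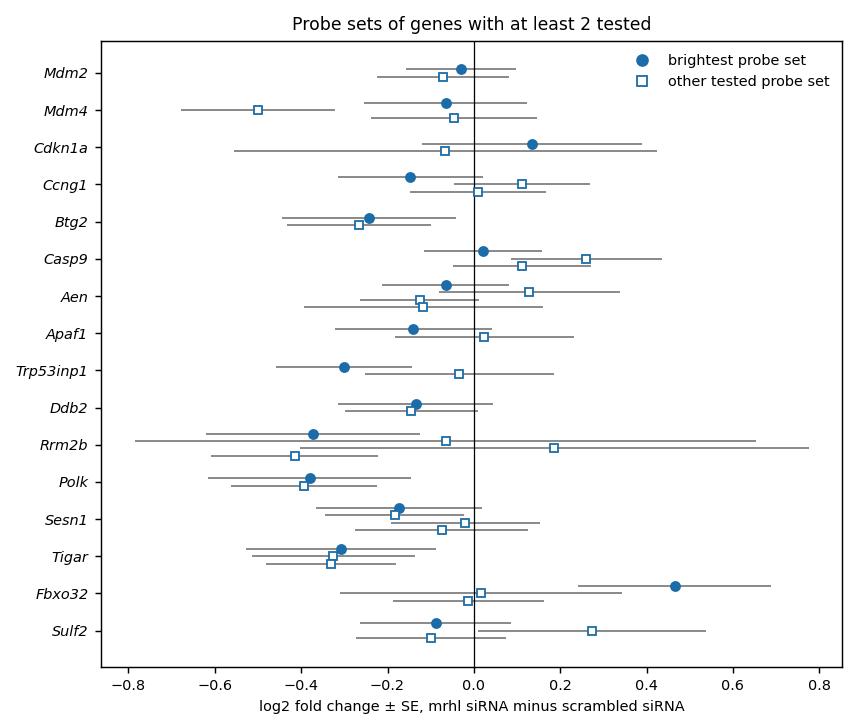
Log2 fold change with its standard error for each tested probe set of the 16 genes that had at least 2, with the brightest filled. The probe sets of Polk, Tigar and Btg2 coincide, and those of Mdm4, Rrm2b and Fbxo32 lie up to 0.56 from the brightest.

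Other genes of the pathway were read from 4 lists, and 0 of their members passed (limma). The 14 sensors and kinases that act before p53 held 11 lower and 3 higher genes, where 57.9% of all genes tested were lower. Their median log2 fold change was -0.15. Of the 14 genes, 1 had an unadjusted p under 0.05, where 2.84% of all genes did (limma). The gene of smallest p was Trp53rkb, a p53 kinase gene, with -0.66 (SE 0.201), and among the 3 higher genes it was the damage histone H2ax, with 0.12 (SE 0.202). The median of this list was -0.08 without scrambled siRNA replicate 3 or without mrhl siRNA replicate 2. Trp53rkb was dim, at 4.68 and 4.02, has a near copy in Trp53rka, and its groups did not overlap. The 20 modifiers and cofactors of p53 held 9 higher and 11 lower genes, with a median of -0.0091. Trp63, a paralog of p53, had 0.28 (SE 0.152) at dim levels, and the deacetylase Sirt1 had -0.25 (SE 0.204).

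The 28 other p53 targets were 14 higher and 14 lower, with a median log2 fold change of -0.02. The phospholipid transfer protein gene Pltp had 0.49 (SE 0.238), and the repair endonuclease gene Ercc5 had -0.24 (SE 0.149). A second probe set of Ercc5 gave -0.29 (SE 0.141), and in both the groups did not overlap.

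The 20 genes of the BCL2 family and caspases were 9 higher and 11 lower, with a median of -0.03, and held the widest range of the 4 lists. Bcl2, which blocks mitochondrial death, stood at 8.18, 8.31 and 8.57 in the controls and at 7.40, 7.63 and 8.12 after mrhl siRNA. The groups did not overlap, and the difference was -0.63 (SE 0.218) with an interval of -1.14 to -0.12, but the adjusted p was 0.965 (limma) and 0.487 with the replicate block. The 4 other probe sets of Bcl2 ran from -0.25 to 0.11.

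Bak1, whose product opens the mitochondrial membrane and is held back by Bcl2 relatives, stood at 8.76, 8.03 and 7.94 and then at 9.23, 9.05 and 8.36, higher in all 3 pairs. Its log2 fold change was 0.63 (SE 0.301, 95% interval -0.07 to 1.34), with an adjusted p of 0.965 (limma) and of 0.487 with the replicate block. Its dim second probe set had 1.06 (SE 0.387), with groups that did not overlap. The control mean of that probe set was 3.95, close to the filter at 3.62.

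**Figure D5:**
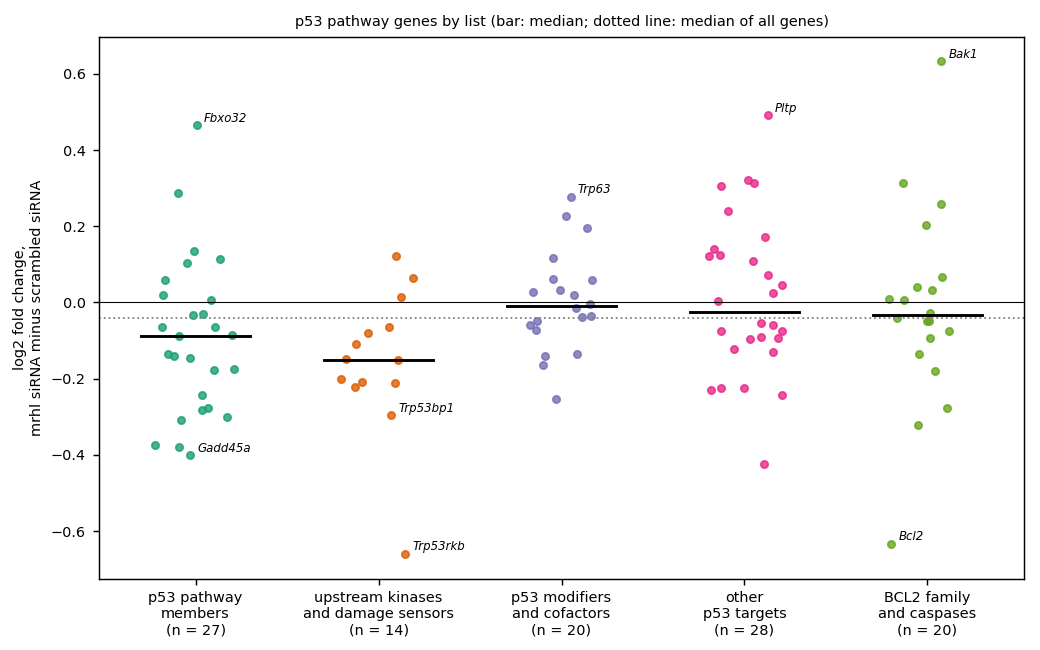
Log2 fold change of each tested gene of the p53 members and of the 4 lists of other pathway genes (points), with the median of each list (bar) and of all genes tested (dotted line, -0.04). Medians lie between -0.15 for the sensors and kinases and -0.0091 for the modifiers, and Bcl2 and Bak1 are the far points of the last list.

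The labelled cell type was checked against marker genes. Of 8 markers of differentiating spermatogonia and germ cells in general, Dazl, Ddx4, Dmrt1 and Sohlh1 lay below the filter, and the other 4, Kit among them, were dimmer than 5.23, the median over all probe sets. Of 10 tested markers of undifferentiated spermatogonia, 5 were above that level, Gfra1, Foxo1 and Uchl1 among them. The others, Zbtb16, Ret, Sall4, Lin28a and Cdh1, were dimmer than 5.23. Lin28a had group means of 4.03 and 4.15 and Cdh1 of 4.21 and 4.43, scrambled siRNA first. Nanos2 and Nanos3 had no probe set. Fibroblast and myoid markers were bright, with 7 of 8 above 5.23. All 8 had higher means after mrhl siRNA, 0 past the test, with a median log2 fold change of 0.27. The size of this median rested on the control array of number 2: without it the median was 0.06, 6 of 8 were higher, and Vim and Des had -0.01 and -0.27. S100a4 had 0.23 with and without that array, and the dim Myh11 had 0.49 with it and 0.80 without. The mean log2 level of the 8 ran from 9.32 to 9.89 in the control arrays and from 9.75 to 9.87 after mrhl siRNA, so the groups overlapped, and Thy1 lay below the filter. Of 10 Sertoli cell markers, 6 were above 5.23, Wt1 among them with group means of 10.69 and 10.84, scrambled siRNA first. The other 4, Amh, Cldn11, Fshr and Inha, were dimmer than 5.23. Cldn11 (3.65 and 3.91) and Fshr (3.76 and 3.67) lay close to the filter at 3.62. Of the 10 Sertoli cell markers, 4 had higher and 6 lower means, with 0 past the test. The mean level of these 10 ran from 6.03 to 6.18 in the controls and from 5.98 to 6.09 after mrhl siRNA. The part of these markers in the values of p53 targets was not tested. In bulk RNA, fewer cells of a type and less RNA per cell cannot be told apart.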

How the data were processed

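Per the labels, the deposited log2 values come from 6 arrays of biotin-labelled cRNA. GCOS and PLIER are the tools named, per the submitters' processing notes. Normalization between arrays and tool versions were not given in the sources used here, and that the scale is log2 rests on the range of the values. Groups and replicate numbers were taken from titles. Of 45101 rows, 64 controls were left out, and probe sets with a mean under the 25th percentile (3.62) were not tested. The probe table gave 1 symbol for 34945 probe sets, several for 932 and none for 9160. Groups were compared with limma 3.58.1 in R 4.3.3 (lmFit, eBayes, adjusted p threshold 0.05). The fit was tested on simulated data with independent noise in each array. That test held no shared effect of replicate number, so it does not cover the correlations given below. Promoter sequences are from RefSeq (GRCm38.p6).

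Replicate numbers were checked as pairs: deviations from group means correlated at 0.534, 0.201 and 0.567 for equal numbers, all over 0.1, and at most at 0.0684 for unequal ones. The design text speaks of 3 independent experiments; that equal numbers share one is read from these correlations, not stated.

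Members, lists and alternatives were chosen with earlier results of these data known. Named in full were Mdm2, Mdm4, Cdkn1a, Bbc3, Pmaip1, Gadd45a, Ccng1, Trp53inp1, Fbxo32 and the 6 members of smallest p, with Rrm2b, Fas and Eda2r added after their values were seen; of each pathway list, the gene of smallest p in each direction. Marker lists of Sertoli, Leydig and blood cells held 10, 4 and 3 tested genes with median log2 fold changes of -0.08, 0.05 and -0.13.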

Additional observations from a re-analysis of the deposited data

How the results depend on the processing

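No member gene passed an adjusted p of 0.05 under any of the 16 alternatives (limma). The lowest was 0.232, for Gadd45a with the replicate block and a trended, robust variance model, added after seeing the data. In that fit 2 of all probe sets passed, none of them of a member. The replicate block alone gave 0 calls over all probe sets and 0 among members. Of 27 genes, 16 kept their sign under all 16 alternatives, 13 lower and 3 higher. The median log2 fold change of -0.09 became -0.0594 after quantile normalization, -0.15 with array weights and -0.0578 when probe sets were averaged by gene, and ran from -0.19 to -0.0287 when each array was left out in turn. The median over all genes, -0.04, became -0.0156 after quantile normalization and -0.0452 with array weights. It ran from -0.0521 to -0.0176 when each array was left out. The count of 1 gene without overlap (3.70%, all genes 8.44%) became 2 with no filter (6.90%, all genes 8.67%), which admits Eda2r. It became 2 when probe sets were averaged, where no share over all genes was taken. It became 6 without both arrays of number 1, also added afterwards, which is 22.2% of members against 34.7% of all genes. It ran from 1 to 10 when single arrays were left out, with 10 (37.0%, all genes 28.1%) without mrhl siRNA replicate 3 and 4 (14.8%, all genes 26.7%) without scrambled siRNA replicate 1. It was 3 or fewer otherwise, or 3.70% to 11.1% of members against 12.8% to 16.5% of all genes. Smaller groups overlap less by construction. The offset alternatives were not run, since the values were already log2. Signal near background limits Eda2r, Tnfrsf10b and the dim probe sets of Rrm2b.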
